A study of Homo sapiens with 2 samples.

Results

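Some names in a miRNA count table stand for sequences that also occur in other classes of small RNA. The 7 entries were chosen by name out of 793 listed miRNAs. hsa-miR-1246 and hsa-miR-1290 overlap U2 small nuclear RNA, and hsa-miR-1260a, hsa-miR-1260b, hsa-miR-4454, hsa-miR-7977 and hsa-miR-12136 (below without the human prefix hsa) overlap transfer RNA and other RNAs. The reads came from exosomes, vesicles shed into the medium, and the cells were 2 human lines of liver cancer, with 1 small RNA library each. MHCC97H is a hepatocellular carcinoma line of high metastatic potential, and HepG2, a liver tumor line, carries the same cell type label. Cells of both lines grew in medium whose serum had been cleared of exosomes, with no treatment named in the labels, and vesicles were pelleted from that medium by ultracentrifugation.

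U2 is the spliceosomal RNA that pairs with the branch point of introns. Transfer RNAs carry amino acids to the ribosome, and their 3′ end carries a CCA that an enzyme adds after transcription. Pieces of such abundant RNAs enter small RNA libraries, where a read that matches a miRNA name is counted under that name. miR-1246 and miR-1290 are often described in the vesicles and serum of cancer patients.

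The sequences show what the names hold in common. They are the mature sequences that RefSeq lists (GRCh38.p14), 5′ to 3′, with the seed (bases 2 to 8, the part of a miRNA that pairs with its target) in capitals, and all 7 were found by name.
hsa-miR-1246: aAUGGAUUuuuggagcagg
hsa-miR-1290: uGGAUUUUuggaucaggga
hsa-miR-1260a: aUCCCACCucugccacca
hsa-miR-1260b: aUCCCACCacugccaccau
hsa-miR-4454: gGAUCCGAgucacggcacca
hsa-miR-7977: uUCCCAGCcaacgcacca
hsa-miR-12136: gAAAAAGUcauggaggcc

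miR-1246 and miR-1290 are near copies. Laid side by side with miR-1290 starting at base 3 of miR-1246, they overlap by 17 bases with 1 mismatch, G15U counted from the 5′ end of miR-1246. Their seeds are read from different starts and differ. miR-1260a and miR-1260b share the seed UCCCACC and differ over 18 aligned bases by 1 mismatch, U9A counted from the 5′ end of miR-1260a. No other member shares its seed with a listed miRNA that has a sequence in the table used. Reads of such near copies can be counted under either name, and how many mismatches the mapping allowed is not stated in these sources.

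The U2 match is exact for miR-1246. Its 19 bases lie at positions 94 to 112 of RNU2-1, a U2 gene of 191 bases on chromosome 17 (43233787 to 43233977, minus strand, GRCh38). The stretch around them, at chr17:43233854-43233896, minus strand, is shown with the bases of miR-1246 in capitals, and below it the RefSeq hairpin of MIR1246 (chr2:176600980-176601052, minus strand), with the mature miRNA in capitals.
RNU2-1, positions 82 to 124: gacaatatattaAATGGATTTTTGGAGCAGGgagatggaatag
MIR1246 hairpin: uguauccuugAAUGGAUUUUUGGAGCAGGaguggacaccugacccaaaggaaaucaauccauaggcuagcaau

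The hairpin and U2 share a longest run of 19 bases, which starts at hairpin base 11 and ends where the mature miRNA ends. A read of exactly the mature miRNA therefore comes from either RNA without a trace of which. miR-1290 differs from RNU2-1 at positions 96 to 114 by 1 base, U13G counted from the 5′ end of miR-1290, and its 78-base hairpin shares a longest run of 12 bases with U2. Among 5722 transcripts of small nuclear, small nucleolar, ribosomal, mitochondrial and other structured RNA in GENCODE release 29, 19 held miR-1246 exactly, 0 held miR-1290 exactly, and 23 held miR-1290 with 1 mismatch. RNU2-1, a small nuclear RNA, was among the 19 and among the 23, and the classes of the rest were not tallied.

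The hairpin given for miR-12136 is a mitochondrial transfer RNA sequence. Its 71 bases (chr1:632615-632685, minus strand) hold all 69 bases of MT-TS1, a serine transfer RNA gene of the mitochondrial genome, with 0 mismatches and 2 added bases. The mature sequence is the first 18 bases of MT-TS1. The hairpin overlaps an exon of MTCO1P12, a pseudogene of a mitochondrial gene on the opposite strand, and an intron of AL669831.3 on its own strand. The start of MT-TS1 (chrM:7485-7514, minus strand) is shown with the bases of miR-12136 in capitals.
MT-TS1, positions 1 to 30: GAAAAAGTCATGGAGGCCatggggttggct

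The other 4 entries carry a CCA at or next to their 3′ end. miR-1260a, miR-4454 and miR-7977 end in CACCA, and miR-1260b holds CACCA at bases 14 to 18 of 19. miR-4454 and miR-7977 share their last 6 bases. Of the 704 listed miRNAs with a RefSeq sequence, 3 end in CACCA (0.426%), and these are the 3 members. By wider criteria the trait is not confined to the members. Of the 704, 7 end in CCA (0.994%), 3 of them members, and 14 hold CACCA anywhere (1.99%), 4 of them members. In all 2370 RefSeq mature names 6 end so (0.253%), read on the strand of the miRNA. In the GENCODE transcripts the closest matches of these 4 entries had 4 to 6 mismatches. Nuclear transfer RNA sequences were not used here, so their match to the 4 entries was not measured.

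The hairpin genes lie apart in GRCh38. MIR1290 (chr1:18897071-18897148, minus strand) lies in an intron of ALDH4A1, a gene of proline degradation, and of AL080251.1. MIR1260A (chr14:77266218-77266290, plus strand) overlaps an exon of NGB, which encodes neuroglobin, on the opposite strand, and MIR1260B (chr11:96341438-96341526, plus strand) overlaps an exon of the Notch coactivator gene MAML2, also on the opposite strand. MIR1246, MIR4454 (chr4:163093574-163093628, minus strand) and MIR7977 (chr3:176515103-176515151, plus strand) overlap no other GENCODE gene.

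The mature sequences are short. They span 18 to 20 bases, where the median of the 704 listed miRNAs with a sequence is 22. All 7 are among the 74 that have 20 bases or fewer (10.5%). None of the 7 has a 5p or 3p suffix, as 162 of the 793 names do not (20.4%), and RefSeq lists no other arm for any of their hairpins.

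**Figure D1:**
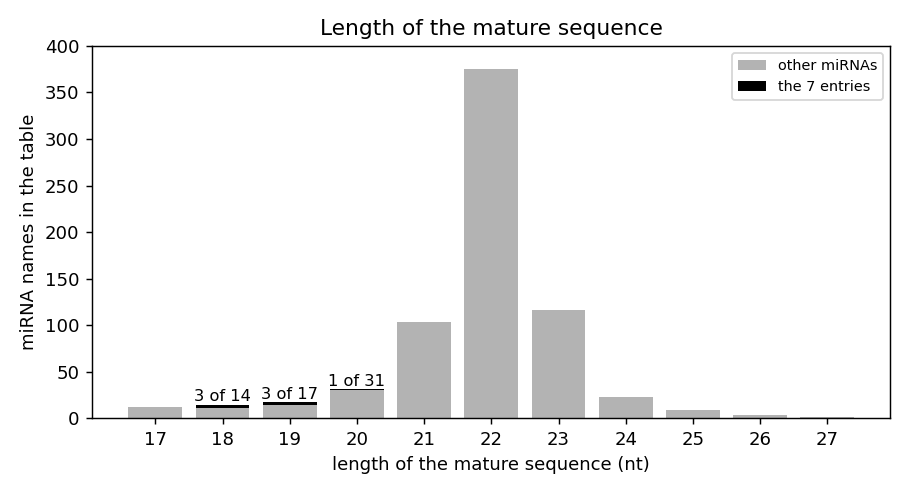
Number of listed miRNA names (y axis) at each length of the mature sequence in nucleotides (x axis), with the 7 entries as the black part of each bar and other miRNAs in grey. The entries sit at 18, 19 and 20 nucleotides, below the median of 22.

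Depth was 304457 miRNA reads in MHCC97H and 22831 in HepG2, which is 13.3 times less. Levels are CPM, counts scaled to a common total of miRNA reads, so 1 read is worth 3.28 CPM in MHCC97H and 43.8 CPM in HepG2. The hepatocyte miRNAs miR-122-5p, miR-192-5p, miR-194-5p and miR-148a-3p were all detected in both libraries and summed to 30661 CPM in MHCC97H and 157812 CPM in HepG2. Most of each sum was miR-148a-3p (26976 CPM in MHCC97H, 142438 CPM in HepG2). miR-192-5p and miR-194-5p were also higher in HepG2, while miR-122-5p was close in both (979 CPM in MHCC97H, 1051 CPM in HepG2). The red cell miRNAs miR-451a, miR-486-5p and miR-144-3p summed to 11463 CPM in MHCC97H and 24528 CPM in HepG2. Of these, miR-451a was higher in HepG2 (2716 CPM in MHCC97H, 20104 CPM in HepG2), while miR-486-5p (8313 CPM in MHCC97H, 4205 CPM in HepG2) and miR-144-3p (434 CPM in MHCC97H, 219 CPM in HepG2) were not. The leukocyte miRNAs miR-142-3p, miR-223-3p and miR-150-5p summed to 565 CPM in MHCC97H and 3154 CPM in HepG2. Most of the HepG2 sum was miR-142-3p (191 CPM in MHCC97H, 2584 CPM in HepG2). miR-223-3p had 174 CPM in MHCC97H and 394 CPM in HepG2, and miR-150-5p had 200 CPM in MHCC97H and 175 CPM in HepG2. Whether these markers bear on the levels of the 7 entries was not tested. With 1 library per line no difference has a replicate check, and what belongs to the line and what to its single library cannot be told apart. The 95% intervals given are exact Clopper-Pearson intervals and cover counting error only.

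The 7 entries together took 6330 reads in MHCC97H and 2563 reads in HepG2. That is 2.08% of MHCC97H miRNA reads (95% exact interval 2.03 to 2.13%) and 11.2% of HepG2 miRNA reads (10.8 to 11.6%). The U2 pair alone took 1.35% in MHCC97H (1.31 to 1.39%) and 10.9% in HepG2 (10.5 to 11.3%). The sum of the other 5 went the opposite way, with 0.729% in MHCC97H (0.700 to 0.760%) and 0.324% in HepG2 (0.255 to 0.407%). Of its 2221 MHCC97H reads, 1976 were of miR-1260a and miR-1260b. miR-12136 did not share this direction, with 0.00854% in MHCC97H and 0.0219% in HepG2. By library totals the table as a whole also leaned to MHCC97H. The median log2 ratio (pseudocount of 1 CPM) was 1.12 over all miRNAs at 10 CPM or more in either library, a median raised by names with 0 HepG2 reads. It was 1.12 for the other 5 too, so their lean to MHCC97H is not particular to them.

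hsa-miR-1246 had 3790 reads in MHCC97H and 2273 reads in HepG2, or 12448 CPM in MHCC97H and 99558 CPM in HepG2. It ranked 17 among all miRNAs of the MHCC97H library and 3 in HepG2. Its CPM ratio of MHCC97H over HepG2 was 0.125 (0.119 to 0.132), so it was lower in MHCC97H, by 7.59- to 8.43-fold. For scale, miR-21-5p, the most abundant miRNA of both libraries and a miRNA raised in many tumors, had 144411 CPM in MHCC97H and 300031 CPM in HepG2.

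hsa-miR-1290 had 319 reads in MHCC97H and 216 reads in HepG2, or 1048 CPM in MHCC97H and 9461 CPM in HepG2. Its rank was 106 in MHCC97H and 15 in HepG2. The CPM ratio was 0.111 (0.0929 to 0.132), so it was lower in MHCC97H, by 7.56- to 10.8-fold. Both U2 entries were thus lower in MHCC97H by nearly the same factor, and their intervals overlapped.

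The reads of the U2 pair kept nearly the same proportion in both libraries. MHCC97H held 11.9 miR-1246 reads for each miR-1290 read (10.6 to 13.4), and HepG2 held 10.5 (9.15 to 12.2). The odds ratio of MHCC97H over HepG2 was 1.13 (0.938 to 1.36), an interval that holds 1 and does not show that the proportions are equal. A ratio of reads within a library does not depend on the library total or its scaling.

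hsa-miR-1260b had 1153 reads in MHCC97H and 34 reads in HepG2, or 3787 CPM in MHCC97H and 1489 CPM in HepG2. It was 2.54-fold higher in MHCC97H (1.81 to 3.69). miR-1260a had 823 reads in MHCC97H and 31 reads in HepG2, or 2703 CPM in MHCC97H and 1358 CPM in HepG2. Its CPM ratio was 1.99 (1.39 to 2.95), just under 2. These seed partners had similar ratios. MHCC97H held 1.40 miR-1260b reads for each miR-1260a read (1.28 to 1.53) and HepG2 held 1.10 (0.654 to 1.85), with an odds ratio of 1.28 (0.752 to 2.16).

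hsa-miR-7977 had 103 reads in MHCC97H and 0 reads in HepG2. Its level was 338 CPM in MHCC97H (276 to 410), while the count of 0 in HepG2 was set against a floor of 3 reads, 131 CPM, and its exact interval reaches 162 CPM. It was at least 2.57-fold higher in MHCC97H by that floor, which takes the MHCC97H count as read, and the lower end of the exact interval of the ratio was 2.06. miR-4454, which like miR-7977 ends in GCACCA, had 116 reads in MHCC97H and 4 reads in HepG2, or 381 CPM in MHCC97H and 175 CPM in HepG2. Its ratio of 2.17 had an interval of 0.827 to 8.12, so a difference was not detectable at this depth. MHCC97H held 1.13 miR-4454 reads for each miR-7977 read (0.856 to 1.48), and in HepG2 the 4 and 0 reads set a lower end of 0.660.

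miR-12136, the mitochondrial transfer RNA entry, was the rarest in MHCC97H. It had 26 reads in MHCC97H and 5 reads in HepG2, or 85.4 CPM in MHCC97H and 219 CPM in HepG2. The ratio of 0.390 (0.147 to 1.30) leaned to HepG2, away from the 4 CACCA entries, and its interval held 1.

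**Figure D2:**
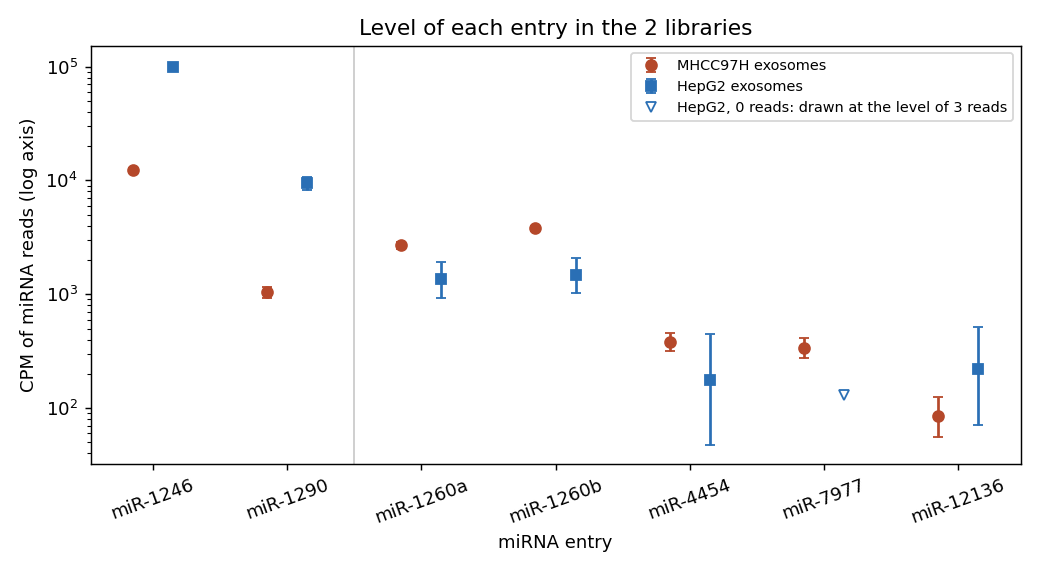
Level of each entry in CPM of miRNA reads (log y axis) in MHCC97H exosomes (red circles) and HepG2 exosomes (blue squares), 1 library each, with bars for the 95% exact counting interval. The U2 entries miR-1246 and miR-1290, left of the line, sit higher in HepG2, and miR-7977 had 0 HepG2 reads and is drawn at 131 CPM.

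A difference was called when the CPM ratio was 2-fold or more and its counting interval excluded 1, among the 543 miRNAs with 10 CPM or more in either library. All 7 entries were in that set. By this rule 2 of the 7, miR-1260b and miR-7977, were higher in MHCC97H, where 111 of all 543 (20.4%) were. Another 2, miR-1246 and miR-1290, were higher in HepG2, where 49 of 543 (9.02%) were. The remaining 3, miR-1260a, miR-4454 and miR-12136, did not meet both criteria. The 543 include names with too few reads to meet this rule. The 20.4% and 9.02% are thus not matched to the entries in read count. By the fold alone 3 entries were past the mark for MHCC97H, where 51.7% of the 543 were, and 3 for HepG2, where 25.2% were. A name with 0 reads in 1 library passes the fold whatever its other count, as miR-7977 did. The 51.7% therefore includes every one of the 543 with 0 HepG2 reads and is not a rate of measured 2-fold differences. The members' median log2 ratio with a pseudocount of 1 CPM was 0.99, beside 1.12 over the 543. Only 362 names had any HepG2 read, so the 543 include names with 0 HepG2 reads. The log2 ratios of such names rest on the pseudocount and raise the median over the 543. The median was -3.09 for the U2 pair and 1.12 for the other 5. The value of 1.12 is that of miR-4454 and equals the median of the 543, so it is 0 when that median is set to 0.

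The counts depended on the scaling. Of all calls, 69.4% were for MHCC97H with library totals, 35.8% when the median log2 ratio was set to 0, and 49.7% when totals left out the 16 most abundant miRNAs. The U2 pair stayed called for HepG2 under all of these. With the median at 0, neither miR-1260b nor miR-7977 was called and miR-1260a leaned to HepG2 (log2 ratio -0.12). Without the most abundant miRNAs, miR-7977 was still called and miR-1260b was not. Under both of these scalings miR-12136 was called for HepG2.

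**Figure D3:**
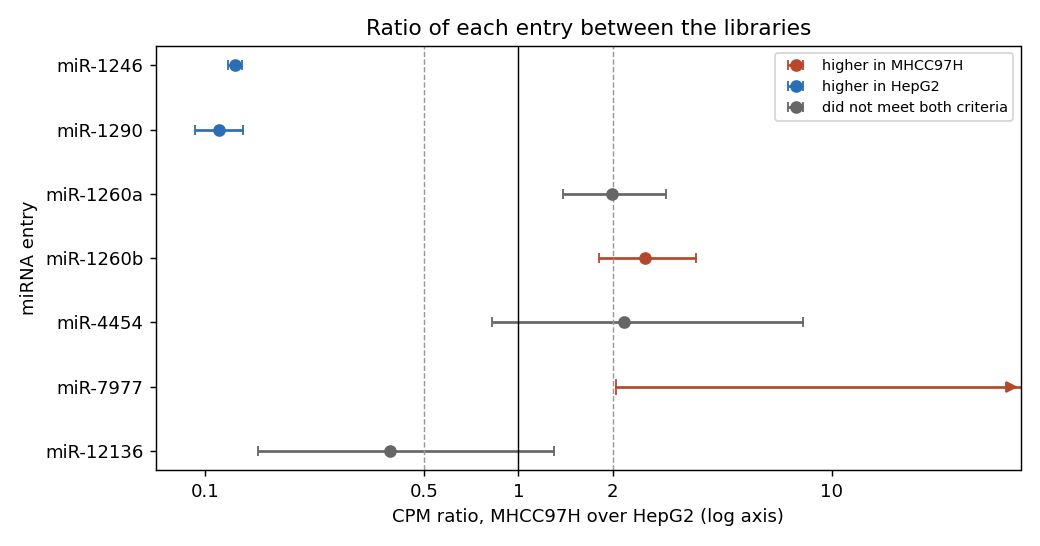
CPM ratio of MHCC97H over HepG2 (log x axis) for each entry, with the 95% exact counting interval. The solid line marks 1 and the dashed lines mark 2-fold either way. miR-1246 at 0.125, miR-1290 at 0.111 and miR-12136 at 0.390 lie left of both dashed lines, and the interval of miR-12136 holds 1. The arrow of miR-7977 starts at 2.06 and has no upper end.

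**Figure D4:**
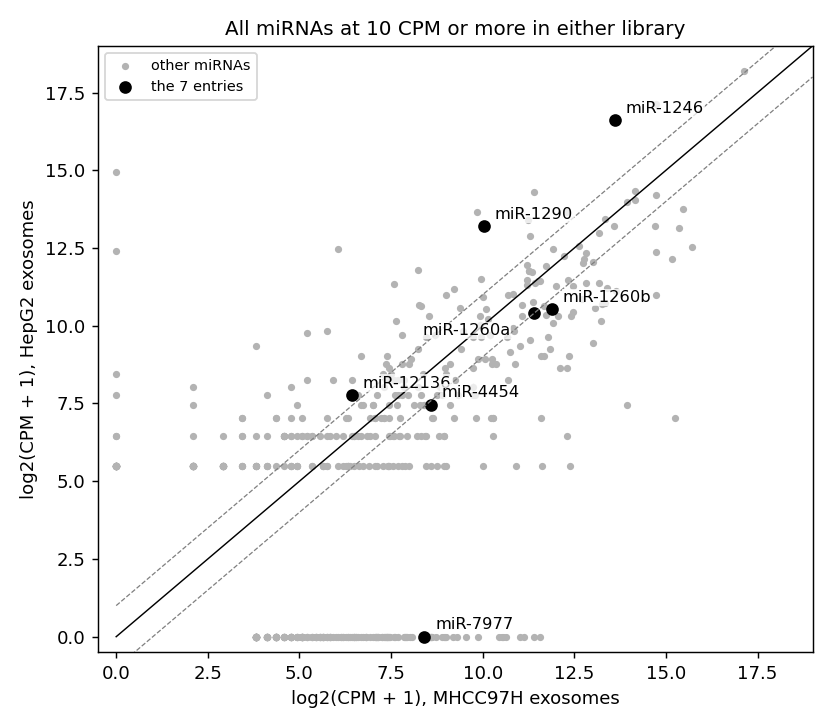
log2(CPM + 1) in MHCC97H (x axis) against HepG2 (y axis) for the 543 miRNAs at 10 CPM or more in either library, with the 7 entries in black. The solid line marks equal levels and the dashed lines 2-fold either way, and miR-1246, miR-1290 and miR-12136 lie above the upper dashed line.

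The shares of the U2 pair and the other 5 went opposite ways, so set against each other they must differ more than either alone. MHCC97H held 1.85 reads of the U2 pair for each read of the other 5 (1.76 to 1.95), and HepG2 held 33.6 (26.7 to 43.0). The odds ratio between the libraries was 18.2 toward HepG2 (14.3 to 23.4), a value that no scaling of the totals changes. Against miR-1260a and miR-1260b alone the reads of the U2 pair stood at 2.08 to 1 in MHCC97H and 38.3 to 1 in HepG2. Within the 7 entries, miR-1246 made up 59.9% of reads in MHCC97H (58.7 to 61.1%) and 88.7% in HepG2 (87.4 to 89.9%). miR-1260b made up 18.2% in MHCC97H (17.3 to 19.2%) and 1.33% in HepG2 (0.920 to 1.85%). These intervals describe the reads of 2 libraries, not the cell lines.

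**Figure D5:**
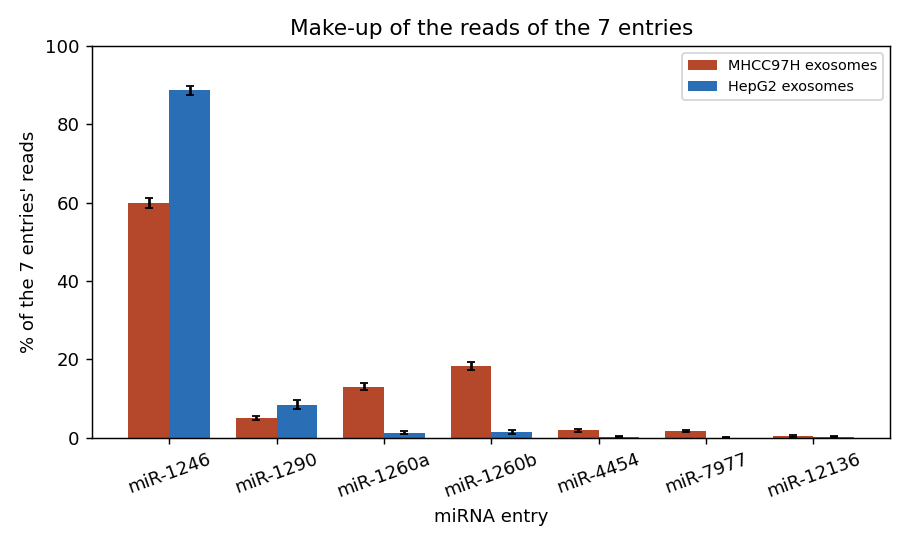
Share of the reads of the 7 entries that each entry held, in percent, in MHCC97H exosomes (red, 6330 reads) and HepG2 exosomes (blue, 2563 reads), with 95% exact counting intervals. miR-1246 holds the most in both libraries, and the shares of miR-1260a and miR-1260b are smaller in HepG2.

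The order of levels was not the same. In MHCC97H it ran miR-1246, miR-1260b, miR-1260a, miR-1290, miR-4454, miR-7977 and miR-12136, and each neighbor was apart from the next beyond counting error except miR-4454 and miR-7977. In HepG2 it ran miR-1246, miR-1290, miR-1260b, miR-1260a, miR-12136, miR-4454 and miR-7977. There the neighbors miR-1260b and miR-1260a were not apart, nor were miR-12136 and miR-4454, nor miR-4454 and miR-7977. miR-1290 thus stood below both miR-1260 entries in MHCC97H and above them in HepG2.

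The miRNA nearest to each entry was found by the distance between log2(CPM + 1) values over the 2 libraries. For miR-1246 it was miR-148a-3p, a liver-abundant miRNA, at a distance of 1.23. For miR-1290 it was miR-15b-5p, a regulator of the cell cycle, at 0.50, with 278 reads in MHCC97H and 298 reads in HepG2. miR-1260a lay nearest to miR-425-5p (0.32) and miR-1260b to miR-378i (0.23). miR-4454 lay at 0.19 from miR-19b-3p and miR-331-3p, which had equal counts of 102 reads in MHCC97H and 4 reads in HepG2. miR-374b-3p had the same counts as miR-7977, and miR-1304-3p lay at 0.11 from miR-12136. With 2 libraries, such nearness is a description of these points.

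Other names that overlap other RNA classes took a smaller share of reads. A list of 34 such names (small nucleolar, ribosomal, mitochondrial, Alu repeat, transfer, Y and vault RNA) had 8 in the table, which took 0.0624% of reads in MHCC97H and 0.0263% in HepG2. Of the 6 at 10 CPM or more, 1 was higher in MHCC97H and 0 in HepG2, beside the 20.4% and 9.02% of all 543. The called entry was miR-4521, with 151 reads in MHCC97H and 1 read in HepG2 (11.3-fold, 2.00 to 450), more MHCC97H reads than miR-4454, miR-7977 or miR-12136. It held 151 of the 190 MHCC97H reads of the 8 names. Its place in the list as a transfer RNA name was not checked, because nuclear transfer RNA sequences were not used here. The call of miR-4521 was lost when the median ratio was set to 0. The others had few reads. miR-619-5p, from an Alu repeat, had 12 reads in MHCC97H and 2 reads in HepG2, and miR-4485-3p, which lies in the mitochondrial ribosomal RNA MT-RNR2, had 9 reads in MHCC97H and 1 read in HepG2. The small nucleolar RNA entries miR-664a-5p and miR-1291 had 10 and 2 reads in MHCC97H and 0 and 1 reads in HepG2, and miR-5585-3p, from an Alu repeat, had 2 reads in MHCC97H and 1 read in HepG2.

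The search of GENCODE transcripts was also run on every listed miRNA with a sequence. The transfer RNAs searched were 22 mitochondrial ones, so a match to a nuclear transfer RNA could not be found. Of 704, 9 (1.28%) occurred exactly in a structured RNA that is not a miRNA, among them miR-1246 and miR-12136. The other 7 had 1 to 10 reads in MHCC97H and 0 to 2 reads in HepG2, and 0 of the 4 at 10 CPM or more were called.

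The 67 other listed miRNAs of 20 bases or fewer took 0.510% of reads in MHCC97H and 0.670% in HepG2, against 2.08% in MHCC97H and 11.2% in HepG2 for the 7 entries. Among the 40 of them that passed the 10 CPM filter, 4 were called for MHCC97H, 6 for HepG2 and 30 for neither. The most abundant was miR-320c, from a Drosha-independent family, with 591 CPM in MHCC97H and 2321 CPM in HepG2, a ratio of 0.255 (0.187 to 0.353). Most of the share of the 7 entries was miR-1246, with 1.24% in MHCC97H and 9.96% in HepG2. The 5 entries outside the U2 pair took 0.729% in MHCC97H and 0.324% in HepG2, the latter below the 0.670% of the 67 short miRNAs.

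The reads of the 7 entries are part of the library totals, and so of the CPM ratio of every other miRNA. Without the 7 entries 298127 reads were left in MHCC97H and 20268 in HepG2, and plain CPM ratios of MHCC97H over HepG2 fell by 0.14 on the log2 scale. With these totals 100 miRNAs were called for MHCC97H and 53 for HepG2, where all reads gave 111 for MHCC97H and 49 for HepG2.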

How the data were processed

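Exosomes of MHCC97H and HepG2 cells gave 1 small RNA library per line. No molecular identifiers are described, so a read is not a separate molecule. The deposited values are raw counts of reads for each mature miRNA, per the file headers. Cutadapt and Bowtie appear in the submitters' processing notes. Not given in the sources used here were their versions and mismatch setting, the miRBase release and read lengths. There were 915 entries for 793 names. A repeated name counted once, at its highest count, and none of the 7 entries is repeated. CPM, ratios and exact Clopper-Pearson intervals were computed from the counts, and the call rule was run on simulated data. The simulated counts held counting error only, so they cannot show how the rule fares with spread between libraries. Folds are plain CPM ratios, and log2 ratios used a pseudocount of 1 CPM. Alternatives changed scaling (TMM in edgeR 4.0.16 with R 4.3.3, median centring, reduced totals), repeats, pseudocount, filter and fold. Sequences came from RefSeq tables and GENCODE release 29, both GRCh38, and were not used in counting. The members and lists were chosen with earlier results of these data known. The searches by exact match and by length were added after the table was seen. Named miRNAs were the 7 entries, the nearest miRNA to each, seed partners, the 6 most abundant of the wider list and the most abundant miRNA of each library. miR-320c and the marker lists stand outside this rule. Other tools were scipy 1.17.1, pandas 2.3.3, numpy 2.4.6 and matplotlib 3.10.9 under Python 3.11.15.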

Additional observations from a re-analysis of the deposited data

How the results depend on the processing

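Of 130 values under alternatives, 106 stayed within their counting interval, within 1.5 times for counts or unchanged for read ratios, and 24 did not. Some of the 106 could not move, because a filter cannot change a member's log2 ratio. Summing repeats cannot change read ratios of members, whose names are not repeated. The interval of miR-7977 has no upper end. Under median centring miR-7977 and miR-12136 stayed within their intervals although their calls changed. Setting the median ratio to 0 took 1.12 off every log2 ratio, a median raised by names with 0 HepG2 reads. It gave -4.12 for miR-1246, -4.29 for miR-1290, -0.12 for miR-1260a and 0.23 for miR-1260b, with 0 members, 0 names of the wider list and 54 of all miRNAs higher in MHCC97H and 97 of all in HepG2. Totals without the most abundant miRNAs took 0.67 off the log2 of plain CPM ratios (the value of miR-7977, which rests on the pseudocount, was 9.51 there against 8.41 with full totals) and gave -3.66 for miR-1246, -3.84 for miR-1290, 0.33 for miR-1260a and 0.68 for miR-1260b, with 1 member and 72 of all miRNAs higher in MHCC97H. Totals without the 7 entries gave -3.14 for miR-1246. TMM (trimmed mean of M-values) shifted the log2 of plain CPM ratios by -0.05 and kept every member's call. Summing repeated names gave -3.17 for miR-1246, and shares in MHCC97H and HepG2 of 1.68% and 10.2% for the 7 entries and 1.09% and 9.89% for the U2 pair, with 0.588% in MHCC97H for the other 5. A 4-fold criterion left 1 member for MHCC97H, miR-7977, which passes with 0 HepG2 reads, although its lower end of 2.06 does not show a 4-fold difference. The fold alone called 281 of all miRNAs for MHCC97H, among them every one of the 543 with 0 HepG2 reads, and 137 for HepG2. miR-1260a lies next to the 2-fold mark, so a 1.5-fold criterion called 3 members for MHCC97H. The median over all 543 miRNAs equals the value of miR-4454, whose centred ratio is 0 by construction. No paired analysis was possible because each line has 1 library, and no library could be left out. Depth limits miR-4454, miR-7977 and miR-12136, which had 5 or fewer HepG2 reads.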
